A study of Mus musculus with 19 samples.

Results

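The genes that make, break down, carry and sense retinoic acid were followed through development of the mouse ovary, from the early gonad to the days after birth. They are 10 genes: the retinaldehyde dehydrogenases Aldh1a1, Aldh1a2 and Aldh1a3, the retinoic acid hydroxylases Cyp26a1 and Cyp26b1, the retinoic acid receptors Rara, Rarb and Rarg, and the cellular retinoic acid-binding proteins Crabp1 and Crabp2. They were chosen by gene symbol alone, as the probe sets that the platform annotation assigns to a single one of these genes. This gave 13 probe sets out of 45037 that are not controls, for 10 genes out of 18194. A gene with several probe sets is represented by that of the highest mean over the ovary arrays. Aldh1a3 had 2 further probe sets and Rarg had 1.

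Retinoic acid is a small signal made inside cells from vitamin A. Retinol is first oxidised to retinaldehyde by alcohol and retinol dehydrogenases, and the ALDH1A enzymes then oxidise retinaldehyde to retinoic acid in a step that is not reversed. Enzymes of the CYP26 family hydroxylate retinoic acid and so end the signal, CRABP proteins bind it in the cytoplasm, and the nuclear receptors RARA, RARB and RARG, paired with RXR proteins, bind DNA response elements and switch transcription of nearby genes when retinoic acid is bound. In the fetal gonad the signal is known for its link to meiosis: Stra8, a gene that germ cells need to enter meiosis, responds to it, the neighbouring mesonephros is a known site of its synthesis, and CYP26B1 degrades it in the fetal testis.

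Ovaries came from wild-type female CD-1 mice, an outbred stock, at 6 stages, days 11, 12, 14, 16 and 18 of gestation (written gd) and day 2 after birth (pnd2). Each stage had 3 samples and each sample 1 Affymetrix Mouse430_2 array, 18 ovary arrays in all, and a reference array held RNA of whole newborns at pnd 0.5, a pool of 8 animals of both sexes. No group was treated. The labels call the samples of gd11, gd12 and gd14 pools of 3 and the later ones unpooled, whereas the series text assigns each sample to a single animal, with a shared dam for gd11 samples 18 and 19 only. Tissue also differed by label, since mesonephros was included in gd11 samples 16 and 18 but sample 19 was described as gonad. The p-values measure the spread between these samples, which includes whatever these differences add.

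The arrays resembled others of their own stage, with a mean correlation per array between 0.95 and 0.98 on the log2 scale. 3 arrays stood apart in marker genes. On gd11 sample 16 the summed signal of the neuronal markers (7 of 8 listed were measured) was 25299, against 4442 and 4619 on the other gd11 arrays. On gd12 sample 14 the summed signal of 8 supporting-cell markers was 38980, against 15872 and 23587 on the other gd12 arrays, and within the gd14 range of 36958 to 39137. Other values of sample 14 lay outside the gd14 ranges. Its germ-cell sum was 23993, against 28740 to 33084, and its mesonephros sum 2532, against 474 to 1205. The supporting-cell marker Foxl2 was at 589, against 921 to 1325. The array of gd16 sample 7 had an Xist signal of 44.8, against at least 11306 on each other ovary array, while Y-linked Eif2s3y, at 803 in the reference of both sexes, was at 23.7 there and at 26.3 and 2.61 on the other gd16 arrays. The sex chromosomes of that sample are therefore uncertain. The summed signal of the mesonephros markers (9 of 10 were measured, none at 0) was 4217 to 5768 at gd11, 2532 to 3605 at gd12, 474 to 1205 at gd14 and at most 1409 later. The highest, 5768, was on gd11 sample 19, described as gonad, against 4368 on sample 16 and 4217 on sample 18. The label of gonad thus did not go with a lower mesonephros sum. Markers of the ovary's own cells were present: the supporting-cell sum was highest at gd16, from 43759 to 48601, and the germ-cell sum (7 of 8 measured) rose from at most 4799 at gd11 to at least 28740 at gd14.

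**Figure D1:**
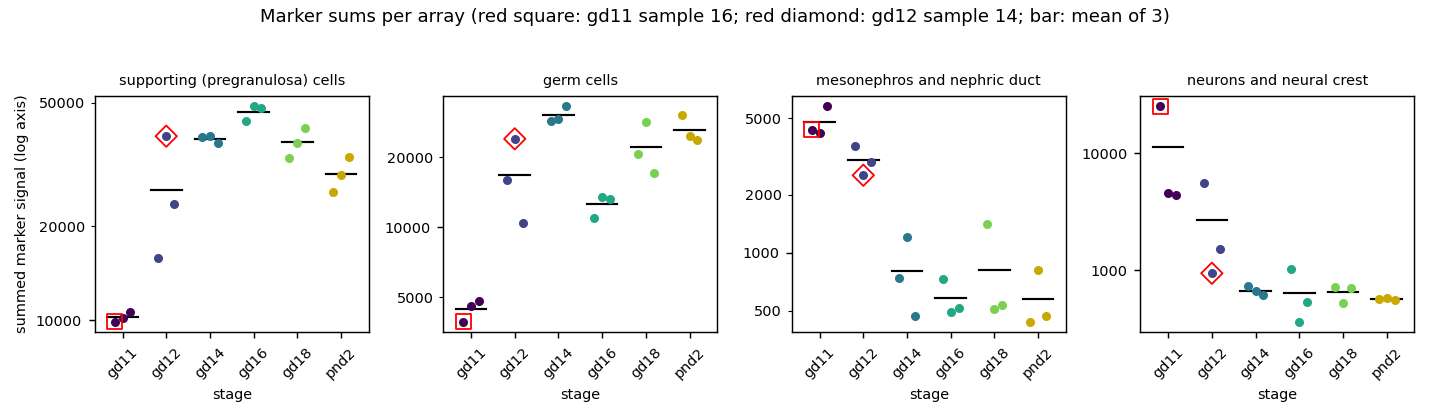
Summed signals of 4 marker lists on each of 18 ovary arrays (log axis) by stage, 1 point per array and a bar at the mean of 3. The red square is gd11 sample 16, whose neuronal sum of 25299 lies above that of every other ovary array. The red diamond is gd12 sample 14, whose supporting-cell sum of 38980 lies among the gd14 arrays, while its germ-cell and mesonephros sums do not.

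Whole tissue was measured, so more cells of a type and more RNA per cell cannot be told apart in any value below. Signals are on a linear scale, and changes are differences of log2(signal + 31) with their standard error. A change was called at an adjusted p under 0.05. Of the 10 genes, 8 had a mean above the median of all values (116.05) in at least 1 stage and were tested. Cyp26a1 and Rara never did. Of those tested, 5 were above that level at every stage, while Aldh1a3, Rarb and Crabp2 were above it at some stages only, so that they entered the test through the stages where they were high.

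Among the enzymes of synthesis, Aldh1a1 and Aldh1a2 ran in opposite directions. Aldh1a1 had signals of 741, 698 and 527 at gd11 (samples 16, 18 and 19), and of 1036, 2094 and 914 at gd12 (samples 13, 14 and 15). At gd14 its signals were 6566, 5599 and 7012, at gd16 9867, 7459 and 8210, at gd18 10739, 10362 and 9552, and at pnd2 11649, 11164 and 12891. Each stage lay above the one before, and only the arrays of gd16 and gd18 overlapped. The mean rose 18.2-fold, from 655 ± 113 (SD, n = 3) at gd11 to 11901 ± 891 (SD, n = 3) at pnd2, a log2 change of 4.13 ± 0.22 (SE, adjusted p = 6.36e-11).

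On the log2 scale, most of that rise fell between gd12 and gd14, where Aldh1a1 changed by 2.31 ± 0.22 (adjusted p = 5.17e-07), and the call was kept in each of 30 alternative analyses. Many of these leave out an array of a stage not compared, which keeps the size of a step and changes only its error. The same holds for each count of alternatives below. The earlier step, from gd11 to gd12, was 0.92 ± 0.22 (adjusted p = 0.0196). It leaned on gd12 sample 14: without that array the step was 0.56 ± 0.16 (adjusted p = 0.0908), and over the 30 alternatives the adjusted p ran from 0.00746 to 0.148. The call was also lost without gd11 sample 19, at 0.78 ± 0.23 (adjusted p = 0.0814), and with gd11 samples 18 and 19, of the same dam, averaged to 1 (0.87 ± 0.24, adjusted p = 0.0603). After gd14 no step between neighbouring stages passed the test, except that from gd14 to gd16 without gd12 sample 14 (0.41 ± 0.14, adjusted p = 0.049). The supporting-cell sum moved with Aldh1a1 up to gd16, then fell to 25774 to 33425 at pnd2, where Aldh1a1 was at its highest. Its markers were mixed: from gd18 to pnd2, 2 of 8 were called lower (Lgr5 and Kitl), against 6.39% of all probe sets. Foxl2, on the same list, had 3113, 3219 and 3568 at pnd2, above every earlier array. The part of cell number in the rise was not tested.

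Aldh1a2, the enzyme that makes most of the retinoic acid of the early embryo, was high first and lower later. Its signals were 5166, 8359 and 8567 at gd11, 8554, 4446 and 7904 at gd12, and 5478, 3268 and 3520.1 at gd14. From gd16 to pnd2 the 9 arrays lay between 2862 and 4049. The low gd11 array was sample 16 and the low gd12 array was sample 14, and neighbouring stages overlapped throughout. From gd11 to pnd2 the change was -0.99 ± 0.24 (adjusted p = 0.00258), to 0.49 times the gd11 mean, with no overlap between the arrays.

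The single step of Aldh1a2 that was called was gd12 to gd14, at -0.75 ± 0.24 (adjusted p = 0.0387), although its arrays overlapped. This call was lost in 8 of 30 alternatives, where the adjusted p reached 0.182, among them those without gd12 sample 13 or 15 and without gd14 sample 11 or 12. Without gd12 sample 14, the low array of its group, the change was -1.04 ± 0.23 (adjusted p = 0.00396). The mesonephros sum fell over the same interval, and its part in the fall of Aldh1a2 was not tested. Aldh1a2 had a mean of 3611 ± 366 (SD, n = 3) at pnd2, where the mesonephros sum was 440.4 to 815.

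The promoter windows of these opposed genes are shown because they differ in base composition. Both come from the RefSeq table of build GRCm38.p6 and run from 250 bases before to 50 after the annotated start. Aldh1a2 lies at chr9:71215789-71296243, and its window, on the plus strand at chr9:71215539-71215838, had a GC content of 78% and a ratio of observed to expected CpG of 1.11. Aldh1a1 lies at chr19:20492583-20643463 and has a pair of windows in the table, at chr19:20492333-20492632 and chr19:20601718-20602017 on the plus strand, with GC contents of 43.3% and 47% and CpG ratios of 0.214 and 0.0604. Over all 32851 windows the median GC content was 52.7% and the median CpG ratio 0.384. The sequences are the Aldh1a2 window and the second Aldh1a1 window, in lower case, with no part marked.
Aldh1a2: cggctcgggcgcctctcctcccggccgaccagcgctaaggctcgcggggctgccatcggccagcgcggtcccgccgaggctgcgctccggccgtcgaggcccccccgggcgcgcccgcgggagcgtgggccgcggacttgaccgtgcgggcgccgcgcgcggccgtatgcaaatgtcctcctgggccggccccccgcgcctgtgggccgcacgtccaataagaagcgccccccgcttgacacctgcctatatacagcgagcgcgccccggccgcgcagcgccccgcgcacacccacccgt
Aldh1a1: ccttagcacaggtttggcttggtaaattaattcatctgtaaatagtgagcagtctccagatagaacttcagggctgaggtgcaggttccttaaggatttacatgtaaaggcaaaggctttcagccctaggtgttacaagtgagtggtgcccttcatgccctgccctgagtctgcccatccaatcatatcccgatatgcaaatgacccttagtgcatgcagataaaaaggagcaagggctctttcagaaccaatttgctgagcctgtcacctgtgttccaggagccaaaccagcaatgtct

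Aldh1a3, the third enzyme, stayed at low signals and overlapped between most stages. It had 68.9, 75.2 and 134 at gd11, then 257, 184 and 210 at gd12, with no overlap. At the later stages its 12 arrays ran from 107 to 274. The step from gd11 to gd12 was 1.03 ± 0.29 (adjusted p = 0.0528) and was not called, although 5 of 28 alternatives called it: array weights, and the fits without gd11 sample 19 (1.26, adjusted p = 0.0366), gd16 sample 7, pnd2 sample 2 or pnd2 sample 3. Its other 2 probe sets were below the level for testing at every stage, at most 113 on any ovary array, and so give no second reading of the gene.

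Of the enzymes that break retinoic acid down, Cyp26b1 had its lowest stage means at gd14, gd16 and gd18. This hydroxylase had signals of 248, 270 and 280 at gd11 and of 311, 249 and 307 at gd12. It then had 156, 118 and 113 at gd14 and 166, 117 and 148 at gd16. At gd18 the signals were 236, 142 and 121, with sample 4 the high one, and at pnd2 they were 191, 244 and 260.

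From gd12 to gd14 the mean of Cyp26b1 fell from 289 to 129, to 0.446 times its level (adjusted p = 0.00269), with no overlap, and the fall was called in each of 29 alternatives. The difference between pnd2 and gd18 was 0.45 ± 0.21 (unadjusted p = 0.0468, adjusted p = 0.176) and was called only without gd18 sample 4, at 0.68 ± 0.21 (adjusted p = 0.0401). From gd11 to pnd2 the change was -0.18, with a 95% interval from -0.62 to 0.25. The lowest mean of Cyp26b1 was thus at gd14, the stage at which the germ-cell genes Stra8 and Rec8 peaked, and no later rise was called with all arrays. However, gd14 was not set apart from the stages after it. The steps to gd16 (0.13 ± 0.21, adjusted p = 0.712) and to gd18 (0.14 ± 0.21, adjusted p = 0.733) had overlapping arrays. The gd14 signals of 118 and 113 also lay near the level for testing (116.05).

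Cyp26a1, the other hydroxylase, was not tested. Its signals ran from 14.5 to 98.4 over the 18 ovary arrays, and every pair of stages next to each other in level overlapped. The whole-newborn reference had 131. The promoter of Cyp26a1 is shown because it holds a retinoic acid response element of the DR5 type, and the gene is a textbook target of the receptors. A DR5 is a direct repeat of short units with 5 bases between them. The units searched, in any pairing and on either strand, were AGTTCA and also the unit AGGTCA and the further unit GGTTCA as well as the unit GGGTCA. The window lies at chr19:37697558-37697857 on the plus strand, and capitals mark the DR5, which reads on the other strand, at bases -32 to -16 from the start. The window also holds a TATAAA, left in lower case.
Cyp26a1: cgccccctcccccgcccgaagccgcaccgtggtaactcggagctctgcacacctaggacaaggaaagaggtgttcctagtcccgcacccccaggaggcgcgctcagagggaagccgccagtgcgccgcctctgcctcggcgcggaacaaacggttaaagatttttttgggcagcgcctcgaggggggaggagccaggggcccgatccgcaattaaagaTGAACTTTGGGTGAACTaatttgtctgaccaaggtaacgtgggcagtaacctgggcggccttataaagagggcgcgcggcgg

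The receptor Rarb showed the clearest fall among the receptors. Its signals were 663, 612 and 902 at gd11 and 622, 254 and 783 at gd12, with gd12 sample 14 the low one. They were 199.6, 163 and 166 at gd14, 171, 108 and 148 at gd16, 126, 52.6 and 119.8 at gd18, and 78.6, 112 and 65.7 at pnd2. The arrays of gd12 and gd14 did not overlap, and all arrays from gd14 on lay below all of those before. The step from gd12 to gd14 was -1.37 ± 0.32 (adjusted p = 0.00591) and was called in each of 30 alternatives, with adjusted p from 0.000184 (without gd12 sample 14, at -1.82 ± 0.27) to 0.0489. The fall from gd11 to pnd2 was -2.70 ± 0.32 (adjusted p = 1.94e-06), from a mean of 725 ± 155 to 85.3 ± 23.7 (SD, n = 3 each), which is below the level for testing.

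Rarb is itself a known target of retinoic acid, through a DR5 element in its promoter, and its window is shown for that reason. The gene lies at chr14:16430839-17082331, and the window at chr14:16575427-16575726 on the minus strand. Capitals mark the DR5, at bases -53 to -37 from the start.
Rarb: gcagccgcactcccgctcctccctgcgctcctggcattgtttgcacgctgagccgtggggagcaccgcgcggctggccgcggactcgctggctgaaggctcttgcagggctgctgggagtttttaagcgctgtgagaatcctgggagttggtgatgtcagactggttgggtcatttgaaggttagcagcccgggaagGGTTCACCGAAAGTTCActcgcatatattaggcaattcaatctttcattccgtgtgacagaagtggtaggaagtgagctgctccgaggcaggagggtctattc
Among the 8 members with a window in the table (13 windows), these were the only matches to a DR5, and none matched the like repeat with 2 bases between the units (DR2). Over all 32851 windows the DR5 was in 32 (0.0974%) and the DR2 in 88 (0.268%). TATAAA was in the windows of Cyp26a1 and Cyp26b1, and in 13.6% of all windows. A match describes letters and not binding.

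Rarg changed little between neighbouring stages. Its arrays ran from 227 to 306 at gd11 and from 133 to 175 at pnd2, and in between from 105 to 314, both of these at gd18. The change from gd11 to pnd2 was -0.75 ± 0.27 (adjusted p = 0.034), with no overlap, and the call was lost in 7 of 28 alternatives, among them those without gd11 sample 16 or 19 and without pnd2 sample 1 or 3, with adjusted p up to 0.149, and that with gd11 samples 18 and 19 averaged (adjusted p = 0.0538). The F test over 6 stages did not call Rarg (adjusted p = 0.217). Its other probe set had at most 31.4 on 17 of the ovary arrays and 129.8 on gd16 sample 7.

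Rara was not tested, with signals of at most 76.5 over the ovary arrays and overlap between all stages next to each other in level. In order of time, its arrays at gd12 (43.2 to 60.2) lay above those at gd14 (15.6 to 38.3). Its probe set had 64.4 in the whole-newborn reference too. A low signal of this probe set says nothing about the level of Rara against Rarb or Rarg, since probes differ in response.

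Of the binding proteins, Crabp2 had the widest fall among the 8 genes tested. Crabp2, which carries retinoic acid to the receptors in the nucleus, had signals of 5297, 2152 and 3870.3 at gd11 and of 1331, 815 and 1483 at gd12. At gd14 they were 449, 569 and 438, at gd16 419, 183 and 187, and at gd18 389, 282 and 141. At pnd2 they were 67.2, 33.7 and 13.4. In the order of stages only gd16 and gd18 overlapped, and the fall was not over at gd18, as pnd2 lay below all earlier arrays.

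The mean of Crabp2 was 99.0 times higher at gd11 (3773 ± 1574, SD, n = 3) than at pnd2 (38.1 ± 27.1, SD, n = 3). The latter signal is near the floor of the array, so that the ratio is loose, and the log2 change was -5.76 ± 0.38 (adjusted p = 1.29e-09). The steps called were gd12 against gd11, at -1.57 ± 0.38 (adjusted p = 0.0236), gd14 against gd12, at -1.23 ± 0.38 (adjusted p = 0.0314), and pnd2 against gd18, at -2.11 ± 0.38 (adjusted p = 0.00108). The last was kept in each of 30 alternatives, in which it ran from -2.67 to -1.29, while the gd12 and gd14 steps were lost in 5 and 6 of them, the former also without gd11 sample 19 (-1.50 ± 0.43, adjusted p = 0.0689). The step from gd14 to gd16 was -0.90 ± 0.38 (adjusted p = 0.105), and without gd16 sample 7, whose signal of 419 was the high one, it was called at -1.25 ± 0.39 (adjusted p = 0.0419).

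Crabp1, a cytoplasmic binding protein known from neural tissue and neural crest, fell by gd14 and had its lowest mean at gd16. Its signals were 1691, 837 and 1256 at gd11, 611, 192 and 438 at gd12, and 161, 170.3 and 164 at gd14. The 6 arrays of gd16 and gd18 lay between 86.3 and 228, and pnd2 had 278, 264 and 236. The pnd2 arrays lay above all those of gd14, gd16 and gd18, and the step from gd18 was 0.71 ± 0.33 (unadjusted p = 0.0457, adjusted p = 0.173), so it was not called.

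The fall of Crabp1 from gd11 to gd12 was -1.61 ± 0.33 (adjusted p = 0.00925) and that from gd12 to gd14 -1.05 ± 0.33 (adjusted p = 0.0367). Arrays did not overlap in either. The call from gd12 to gd14 was lost in 7 of 30 alternatives, with adjusted p up to 0.202. Among them were those without gd12 sample 13 or 15 and without gd14 sample 10, 11 or 12. The neuronal sums of gd11 and gd12 overlapped, at 938, 1513 and 5617 at gd12, and 1 of 7 neuronal markers was called lower in the first step (Isl1). The array of gd11 sample 16 had both the highest neuronal sum and the highest Crabp1 and Crabp2 signals. Without it the fall of Crabp1 from gd11 to gd12 was -1.38 ± 0.36 (adjusted p = 0.0519) and that of Crabp2 -1.28 ± 0.40 (adjusted p = 0.111), both in the same direction but no longer called. Without gd12 sample 14 the values were -1.18 ± 0.31 (adjusted p = 0.0677) and -1.31 ± 0.41 (adjusted p = 0.147). The part of neuronal and mesonephric cells in the falls was not tested.

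**Figure D2:**
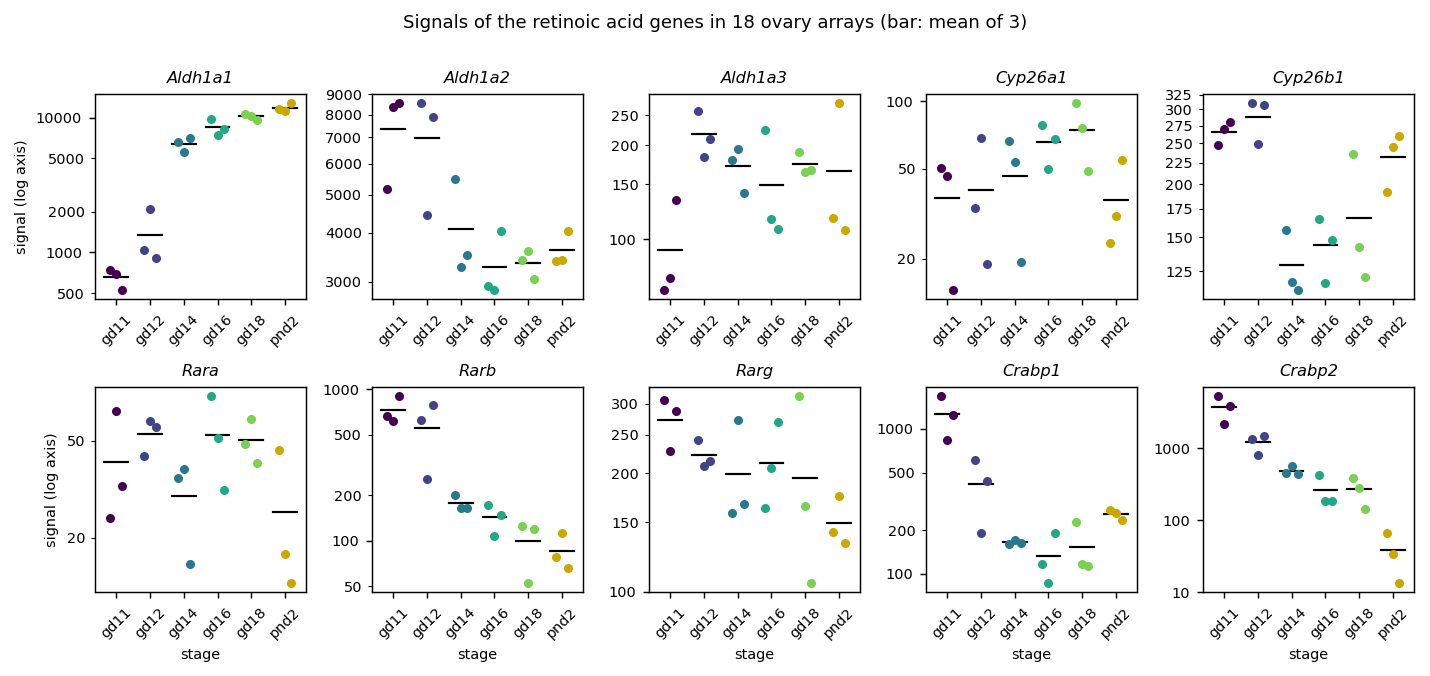
Signal (log axis) of each of the 10 genes on 18 ovary arrays by stage, 1 point per array and a bar at the mean of 3, each panel with its own range. Aldh1a1 has a higher mean at each stage than before, from a mean of 655 to 11901, while Rarb and Crabp2 descend. Cyp26b1 has its lowest mean at gd14, with no overlap with gd12 but with overlap with gd16.

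By stage, the changes fell early. Between gd11 and gd12, 1 of the 8 tested genes was higher (Aldh1a1), where 3.07% of all probe sets tested were, and 2 were lower (Crabp1 and Crabp2), where 1.05% were. The median change of the 8 was -0.18, against 0.04 over all probe sets tested. This is the comparison that depends most on single arrays, both for the genes here and for all probe sets, of which 1089 were called with all arrays and 339 without gd12 sample 14. None of the 3 calls was kept without that array, and only Aldh1a1 without gd11 sample 16. Markers moved in this step too: 6 of 8 tested supporting-cell markers and 6 of 7 germ-cell markers rose, and 2 of 8 tested mesonephros markers and 1 of 7 neuronal ones fell.

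Between gd12 and gd14, 6 of the 8 genes changed. Aldh1a1 was higher, where 9.42% of all probe sets were, and Aldh1a2, Cyp26b1, Rarb, Crabp1 and Crabp2 were lower, where 7.05% were. The median change was -0.88, against -0.04 over all. Aldh1a1, Cyp26b1 and Rarb were called in each alternative run. Aldh1a2, Crabp1 and Crabp2 were all lost in 4 of the alternatives, those without gd12 sample 13, gd12 sample 15 or gd14 sample 12 and that with no filter on low signals, so that 3 calls were left there. In this step 4 of 8 supporting-cell markers rose and 4 of 8 tested mesonephros markers fell. Of the germ-cell markers 3 of 7 rose and 1 fell, and 2 of 5 blood markers (the embryonic globins Hbb-bh1 and Hba-x), 2 of 7 tested endothelial ones (Plvap and Emcn) and 1 of 7 neuronal ones (Nefm) fell. The blood sum went from 50095 to 58352 at gd11 down to 150 to 205 at pnd2, and the part of these cells in the changes was not tested.

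From gd14 on few changes were called. Between gd14 and gd16 none of the 8 was called, against 9.68% of all probe sets higher and 9.10% lower, and 1 of them, Crabp2, had an unadjusted p under 0.05. Between gd16 and gd18 none was called, against 4.58% higher and 3.00% lower, and none had an unadjusted p under 0.05. Between gd18 and pnd2 none was higher, against 6.60%, and Crabp2 alone was lower, against 6.39%. Each of these shares comes to less than 1 gene in 8, so a count of 0 lies near the background.

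Over the whole span from gd11 to pnd2, 1 of 8 was higher (Aldh1a1), against 22.4% of all probe sets, and 5 were lower (Aldh1a2, Rarb, Rarg, Crabp1 and Crabp2), against 19.5%. The F test called 6 of 8, against 62.8% of all probe sets, a share that is close to the background.

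**Figure D3:**
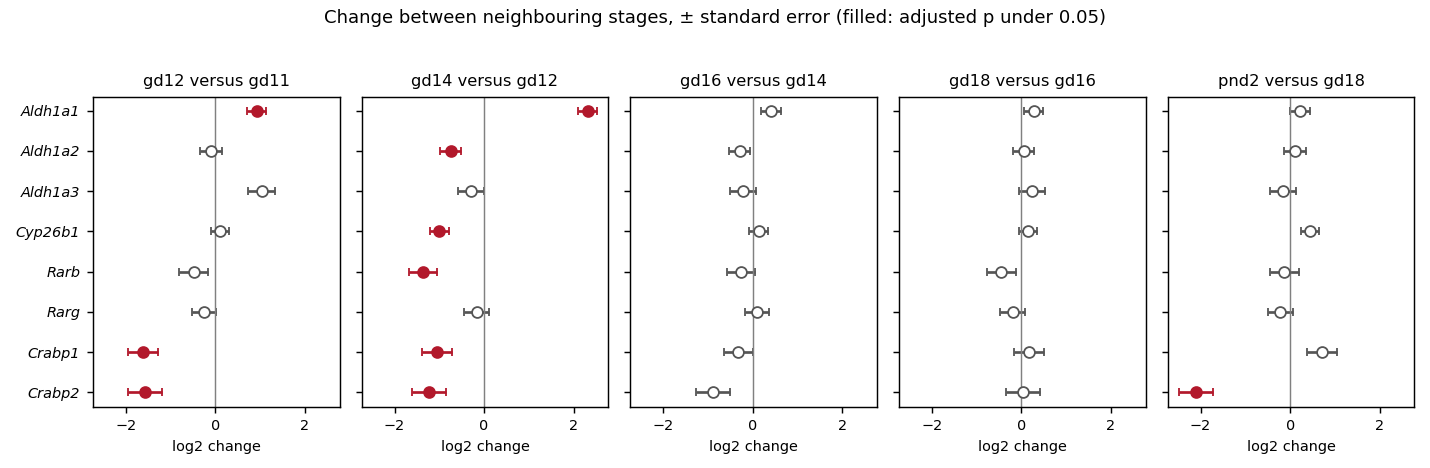
Log2 change of the 8 tested genes between neighbouring stages, with points at the estimate and bars of 1 standard error, filled red where the adjusted p was under 0.05. The filled points lie in the steps to gd12 and gd14, with 3 and 6 genes, and in the step to pnd2 with Crabp2 alone.

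Among themselves, Aldh1a1 stood against the genes that fell. Across the 18 arrays, which share the stage differences of all genes, Aldh1a1 had a Pearson correlation of -0.96 with Rarb, -0.89 with Crabp2 and -0.87 with Aldh1a2 on the log2 scale. Among those that fell, Rarb had 0.89 with Crabp2, 0.86 with Aldh1a2 and 0.81 with Crabp1. Cyp26b1 had 0.73 with Crabp1 and 0.37 with Crabp2, the gene whose fall went on to pnd2. Of 28 pairs, 12 had a correlation above 0.5 and 6 below -0.5. Among the gd12 arrays, sample 14 was the highest for Aldh1a1 and the lowest for Aldh1a2, Aldh1a3, Cyp26b1, Rarb, Rarg, Crabp1 and Crabp2. That array also had the highest supporting-cell and germ-cell sums and the lowest mesonephros sum of its stage.

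Among 12065 genes compared, the pattern most like that of Aldh1a1 was that of Foxl2, the transcription factor that marks the supporting cells of the ovary, with a correlation of 0.98 over the 18 arrays. Gatm, an enzyme of creatine synthesis, and Gstm2, a glutathione transferase, had 0.98 as well. The stage means of Foxl2 ran 153, 372, 1186, 2565, 2374 and 3300.0 from gd11 to pnd2. Most like Rarb was Meis2, a homeobox gene that responds to retinoic acid, with 0.97 and stage means from 11313 at gd11 to 1057 at pnd2. Most like Aldh1a2 was the T-box gene Tbx20 with 0.90, most like Cyp26b1 Rrp9 with 0.90 and the semaphorin gene Sema3c next to it, and most like Crabp1 Rangap1, with 0.95 and the cadherin gene Cdh2 in the same top 3. Crabp2 was most like Zfp518b with 0.95, and the RNA-binding protein gene Igf2bp1 was in its top 3, with a mean of 2181 at gd11 and 26.0 at pnd2. Aldh1a3 and Rarg reached 0.79 with Slc52a3 and 0.80 with Zfp9.

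Around these genes, 48 others of retinoid metabolism and response were listed by name, of which 41 were measured and 33 tested. In the list of genes that respond to retinoic acid, 6 of 8 tested changed between gd12 and gd14, with 2 higher, against 9.42% of all probe sets, and 4 lower, against 7.05%. Stra8 had signals of 10.8, 135 and 57.6 at gd12, 2189, 3200 and 3583 at gd14 and at most 105 at gd16. Rec8, a cohesin of meiotic chromosomes, had 33.6, 196 and 24.5 at gd12, 911, 1339 and 1763 at gd14 and 126 to 288 at gd16. In both, gd12 sample 14 was the highest of its stage, and the gd14 arrays lay above all other ovary arrays. Stra8 rose by 5.12 ± 0.47 (adjusted p = 4.41e-07) and Rec8 by 3.82 ± 0.41 (adjusted p = 2.64e-06), and the changes to gd16 were -4.98 and -2.54 (adjusted p = 2.3e-06 and 0.000354). From gd12 to gd16 the germ-cell sum moved with both. It was 10449 to 23993 at gd12, 28740 to 33084 at gd14 and 10923 to 13551 at gd16. The sum then rose again, to 17031 to 28295 at gd18 and 23751 to 30477 at pnd2. At those stages neither Stra8 nor Rec8 had a signal above its highest at gd16. The markers in the sum were mixed: at gd14 Dazl, Ddx4 and Mael were called higher and Dppa5a lower. At gd16 Dazl, Ddx4 and Dppa5a were called lower and Mael was not. The part of germ cells was not tested.

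The other 4 went down from gd12 to gd14, as Rarb did: the nuclear receptor genes Nr2f1 by -2.10 ± 0.35 (adjusted p = 0.000424) and Nr2f2 by -1.49 ± 0.23 (adjusted p = 0.000156), and the homeobox genes Meis1 by -1.28 ± 0.29 (adjusted p = 0.00491) and Meis2 by -1.30 ± 0.26 (adjusted p = 0.00179). Nr2f2 is also in the list of stroma markers, where it was the only one of 8 called lower. Nr2f1, Meis2, Meis1, Nr2f2 and the homeobox gene Hoxb1 were also lower at pnd2 than at gd11, by -4.07, -3.38, -2.07, -1.20 and -1.52. The call of Hoxb1 was lost without gd11 sample 16 and without pnd2 sample 2. Tgm2, a transglutaminase gene, went the other way, by 1.25 ± 0.21 from gd11 to gd12 (adjusted p = 0.0023) and by 1.87 ± 0.21 to pnd2 (adjusted p = 1.23e-06), though 1 of its 5 probe sets did not move (-0.01 to pnd2). The median change of the 8 tested genes from gd12 to gd14 was -0.55, against -0.04 over all probe sets.

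The steps before the ALDH1A enzymes oxidise retinol to retinaldehyde or reverse this. Of 13 tested genes of retinol and retinaldehyde oxidation and reduction, 2 were lower at gd14 than at gd12, against 7.05% of all probe sets, and 1 was higher at gd16 than at gd14, against 9.68%. At pnd2, 2 were higher and 2 lower than at gd18, against 6.60% and 6.39%. The count at gd16 lies near the background. Adh1, an alcohol dehydrogenase that oxidises retinol, had its lowest mean at gd14: its signals were 2974, 3524 and 3080.5 at gd11, 2637, 805 and 1986 at gd12, 552, 1429 and 398 at gd14 and 2873, 2261 and 1795 at gd16. Its arrays at gd12 and gd14 overlapped, with sample 14 the low one at gd12. It fell to gd14 by -1.21 ± 0.37 (adjusted p = 0.0333, lost in 7 of 30 alternatives, among them those without gd12 sample 13 or 15 and without gd14 sample 10 or 12), and rose to gd16 by 1.69 ± 0.37 (adjusted p = 0.00448). At gd18 it had 3044, 3401 and 3118, and at pnd2 1024, 1083 and 1506, a fall of -1.40 ± 0.37 (adjusted p = 0.018) that was lost without gd18 sample 5 or 6 and without pnd2 sample 1 or 2.

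Adh4, another alcohol dehydrogenase, had at most 178 on each array up to gd18 and 526, 282 and 422 at pnd2, a rise of 1.59 ± 0.42 (adjusted p = 0.0168). Aldh1a7, a mouse gene that is a close copy of Aldh1a1, did not follow it: it fell from gd18 to pnd2 by -1.38 ± 0.36 (adjusted p = 0.0167), from signals of 678 to 809 to signals of 157 to 478, a call lost without gd18 sample 5 and without pnd2 sample 1 or 2. Whether probes of one copy also bind the other was not tested, so both are uncertain to that degree. Rdh10, the main retinol dehydrogenase of the embryo, had signals between 2163 and 5490.3 with no step called. Adh5 was 0.27 higher at pnd2 than at gd18 (adjusted p = 0.047), a call that was lost in 21 of 30 alternatives.

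Of 5 tested genes of retinol uptake and storage, 1 was higher at gd16 than at gd14, against 9.68% of all probe sets. Another 1 was higher at pnd2 than at gd18, against 6.60%. Lrat, which stores retinol as ester, rose from gd14 to gd16 by 1.37 ± 0.34 (adjusted p = 0.00852), from signals of 23.2 to 61.9 to signals of 94.1 to 244. Bco1, which cleaves beta-carotene to retinaldehyde, rose at pnd2 by 1.64 ± 0.26 (adjusted p = 0.000333): it had at most 90.3 on every earlier array and 358, 249 and 218 at pnd2. Ttr and Rbp4, whose proteins carry retinol in blood, stood at 1676 and 815 on gd11 sample 18 and at no more than 596 and 386 on the other ovary arrays, and were not called in any step. Among 7 tested receptor partners, carriers and cofactors, Fabp5, a carrier that hands retinoic acid to another nuclear receptor, was lower at pnd2 than at gd11 by -2.43 ± 0.32 (adjusted p = 6.14e-06). Rxrb, a partner of the RARs, rose at gd16 by 1.16 ± 0.21 (adjusted p = 0.000941) and the coactivator gene Ncoa1 by 0.68 ± 0.16 (adjusted p = 0.0066). Of these 7 genes, 2 were thus higher at gd16, against 9.68% of all probe sets. From gd11 to pnd2, 2 of the 7 were lower, against 19.5%. The small counts of both lists lie near the background.

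**Figure D4:**
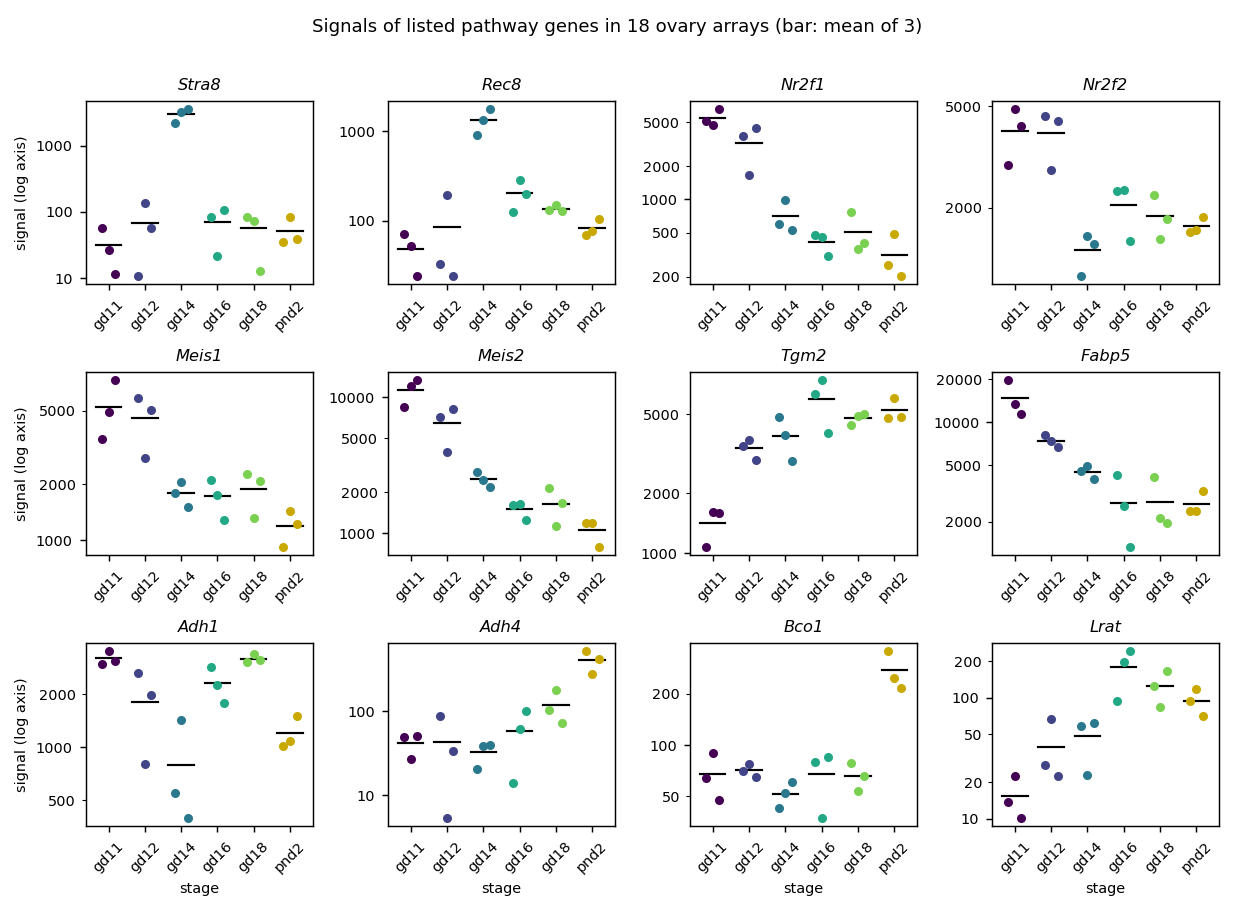
Signal (log axis) of 12 listed genes of retinoid response, carriage and metabolism on 18 ovary arrays by stage, 1 point per array and a bar at the mean of 3. Stra8 and Rec8 peak at gd14, where Adh1 is at its lowest, Nr2f1 and Meis2 descend from gd11, and Bco1 and Adh4 stand highest at pnd2.

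Over the 33 genes of these lists 2 were called higher and 0 lower from gd11 to gd12, where 3.07% and 1.05% of all probe sets were. From gd12 to gd14 the counts were 3 and 7, against 9.42% and 7.05%, from gd14 to gd16 4 and 2, against 9.68% and 9.10%, and from gd18 to pnd2 3 and 2, against 6.60% and 6.39%. Apart from the 7 lower at gd14, these lie near the background. From gd16 to gd18 limma called none, with 4 at an unadjusted p under 0.05. The step with the most calls was thus the same as that of the 10 main genes. RNA quality also differed by stage: the ratio of the 3' to the 5' probe set of Gapdh was 2.99 to 3.28 at gd11, 3.48 to 4.28 at gd12, 4.09 to 4.96 at gd14 and 5.07 to 5.41 at pnd2, and its part in the changes was not tested.

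The whole-newborn reference gives a level outside the ovary, from 1 array and so with no test. The mean of the pnd2 ovaries was 5.83 times the reference for Aldh1a1, 4.83 times for Aldh1a2 and 2.52 times for Crabp1. The reference was 2.19 times the pnd2 mean for Cyp26b1, 2.49 times for Aldh1a3 and 3.02 times for Rarg. Crabp2, Rarb and Cyp26a1 had pnd2 means under the level for testing, where a ratio means little, with at most 67.2, 112 and 54.9 on the pnd2 arrays and 621, 157 and 131 in the reference. Rara was under that level in both. At gd11, though, the ovary arrays of Crabp2 (at least 2152), Rarb (at least 612) and Crabp1 (at least 837) all lay above the reference, at 621, 157 and 103. The order of the ovary and the whole newborn thus turned between these stages for Rarb and Crabp2 and did not for Crabp1.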

How the data were processed

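The authors deposited signal intensities on a linear scale, made with GCOS per the submitters' processing notes (version and settings not given in the sources used here). RNA was amplified in 2 rounds per the labels' protocols. The trimmed mean (2% at each end) of every array was 500, so the intensity values were used as deposited, as log2(signal + 31), where 31 is their 25th percentile. Low signals thus show understated changes. Precision is limited by how many arrays each stage has.

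A linear model in limma 3.58.1 (R 4.3.3) had 1 term per stage over the 18 ovary arrays, 12 residual degrees of freedom and a trend of variance with mean signal. Tests were two-sided and adjusted over 26431 probe sets (Benjamini-Hochberg). The model was tested on simulated data with changes at gd14 alone, for the comparison of gd14 with gd12. The other comparisons, the F test and the alternatives were not tested in this way. Probe sets were named through the platform annotation; 932 with several genes were not used.

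All 10 members are named. The rule for other genes admitted up to 3 called genes of each list per direction and comparison. It also admitted genes from the 3 most correlated with each member. Not all that it admitted are described. Ncoa2, Nrip1 and Rdh14 were called but left out, as were some calls of named genes, such as Adh5 and Ncoa1 at gd14. Meis1 at gd14, Hoxb1 and Nr2f2 at pnd2, Rdh10, Ttr and Rbp4 were named beyond this rule, after their values were seen. Members, lists and tests were chosen with earlier results of these data known. The search for 6-letter units in promoters and the choice of windows were added after seeing the data: 5-letter units (GTTCA or GGTCA) with 5 or 2 bases between matched no member and 0.207% and 0.402% of all windows. Coordinates are those of RefSeq, GRCm38.p6. Figures were drawn with matplotlib 3.10.9.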

Additional observations from a re-analysis of the deposited data

How the results depend on the processing

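Up to 30 alternatives were run for each change: other pseudocounts, filters and scalings, other weights and variance models, averaging over a gene's probe sets, other treatment of the gd11 samples, and each array left out in turn. Where the array or the gd11 samples are not of the stages compared, only the error of the change can differ. A call kept in such a run is weak evidence that it is stable. Among the 10 genes, the calls for gd12 against gd11 were 3, and 0 both in a fit to the compared arrays alone and with gd11 sample 19 as the only gd11 array, which is assumed to vary like the other stages and has a larger error by design. Those for gd14 against gd12 were 6, and 3 with no filter. Those for gd16 against gd14 were 0, and 1 (Crabp2) with median scaling, which moves the median of all probe sets there by -0.17. Leaving out 1 array at a time gave 0 to 4 calls for gd12 against gd11, 3 to 6 for gd14 against gd12, 0 to 1 for gd16 against gd14, 0 for gd18 against gd16, 1 to 2 for pnd2 against gd18, 5 to 6 for pnd2 against gd11 and 6 to 7 in the F test. The calls gained were Aldh1a3 at gd12 and, without gd11 sample 19, at pnd2 against gd11, Aldh1a1 at gd16 (without gd12 sample 14), Crabp2 at gd16 (without gd16 sample 7) and Cyp26b1 at pnd2 (without gd18 sample 4). Over all probe sets, gd12 against gd11 ran from 77 to 1547 calls, gd14 against gd12 from 2263 to 6407, gd16 against gd14 from 2226 to 5197, gd18 against gd16 from 579 to 2204, pnd2 against gd18 from 1741 to 4935, pnd2 against gd11 from 5375 to 12240 and the F test from 7604 to 17918. Of the changes that were called, 1 reversed: Adh5 at pnd2 against gd18 was -0.055 (adjusted p = 0.882) as the mean of its probe sets. Changes that were not called could turn sign, such as Aldh1a2 at gd12 (0.19 without gd12 sample 14). Where no value is given, the cause of a lost call was not tested. No paired analysis was possible because the sample numbers in the labels are not shared between stages. Signals near the floor, such as those of Rara, Cyp26a1 and late Crabp2, limit what can be said of them: with the pseudocount at the median signal, the fall of Crabp2 at pnd2 against gd18 was -1.29.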
